A study of Mus musculus with 9 samples.

Results

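Cadm1, Tspan8, Ptprg, Avil, Fermt2 and Carmil1 are 6 mouse genes of cell adhesion and of the actin cytoskeleton, out of 55274 gene identifiers measured. They were picked by name because their levels were far lower in NUP98-NSD1 or in NUP98-NSD1+NRASG12D cells than in NRASG12D cells in these same 9 libraries, so the differences among the groups are given for them as a description and without a test. The label under which they were grouped says that they are lost stepwise, from NRASG12D to NUP98-NSD1 to NUP98-NSD1+NRASG12D. Levels of 5 of the 6 genes followed that order with no overlap between libraries, and Tspan8 did not, because its last pair of groups overlapped.

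The cells were bone marrow cells of female C57BL/6J mice aged 6 to 8 weeks, taken 4 days after 150 mg/kg of 5-fluorouracil, which kills cycling cells and enriches for early progenitors. After 48 h with hIL-6 (10 ng/mL), mIL-3 (6 ng/mL) and mSCF (20 ng/mL) in medium with 15% serum, the cells were transduced with a retrovirus carrying NRASG12D and a blue fluorescent protein, with one carrying the fusion gene NUP98-NSD1 and a green fluorescent protein, or with both, then sorted for the fluorescence, expanded and sequenced. Each of the 3 groups had 3 libraries, and the comparisons have no cells with an empty vector, so every difference is between oncogenes. NRASG12D is a constantly active form of the signalling protein NRAS, and NUP98-NSD1 is a leukaemia fusion of the nucleoporin NUP98 with NSD1, an enzyme that methylates histones. Both were expressed from a viral promoter, and no source used here says whether the replicates came from separate mice, so errors measure the spread between these libraries and may be partly technical.

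Adhesion molecules, the kindlins and talin that switch on integrins, and the proteins that cap, cut and bundle actin together decide how a blood cell holds on to its surroundings and moves. Mast cells, which grow from bone marrow under IL-3 and stem cell factor, lie fixed in tissue next to nerves and fibroblasts and carry several of these proteins in large amounts. Cadm1 is an adhesion molecule of the immunoglobulin superfamily that joins mast cells to fibroblasts and nerves. Tspan8 is a tetraspanin, a 4-pass membrane protein that gathers integrins and other receptors into membrane patches. Ptprg is a receptor-type protein tyrosine phosphatase with an outer domain related to carbonic anhydrase. Avil, or advillin, is an actin-binding protein of the gelsolin and villin family known mainly from sensory neurons. Fermt2, or kindlin-2, binds the tails of integrin beta chains and acts with talin at focal adhesions, a task for which blood cells mostly use its relative Fermt3. Carmil1 binds the capping protein that stops the growth of actin filaments and takes it off filament ends.

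The 6 genes lie on 4 chromosomes of GRCm38. Cadm1 spans 327 kb of the plus strand (chr9:47530173-47857637), and Tspan8 spans 33.1 kb of the plus strand (chr10:115816832-115849893). Avil spans 20.3 kb of the same chromosome and strand (chr10:127000709-127020994). Ptprg spans 689 kb of the plus strand (chr14:11553532-12242041), Fermt2 71.3 kb of the minus strand (chr14:45458795-45530118) and Carmil1 268 kb of the minus strand (chr13:24012344-24280795). The values are for whole genes, all transcripts together.

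Since the 6 levels went down together, the start regions are shown so that their make-up can be compared. The RefSeq table of promoters on GRCm38.p6 holds 5 windows for 4 of the genes, and Cadm1 and Carmil1 are named only. From each window the 250 bases before the listed start were taken and bases inside annotated exons were trimmed off. Capitals mark the motifs GATAA (the core bound by GATA factors) and TGTGGT (the core bound by RUNX factors), searched on both strands. The Avil window (chr10:127000459-127000708, plus strand) is the first line, the Tspan8 window (chr10:115817034-115817270, plus strand) the second, the Ptprg window (chr14:11553303-11553531, plus strand) the third and the Fermt2 window (chr14:45530119-45530315, minus strand) the fourth.
Avil: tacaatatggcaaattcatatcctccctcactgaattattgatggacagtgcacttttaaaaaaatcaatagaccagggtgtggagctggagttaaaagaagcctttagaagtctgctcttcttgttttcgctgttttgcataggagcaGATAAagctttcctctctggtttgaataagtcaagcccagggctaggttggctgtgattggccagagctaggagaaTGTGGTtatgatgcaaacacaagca
Tspan8: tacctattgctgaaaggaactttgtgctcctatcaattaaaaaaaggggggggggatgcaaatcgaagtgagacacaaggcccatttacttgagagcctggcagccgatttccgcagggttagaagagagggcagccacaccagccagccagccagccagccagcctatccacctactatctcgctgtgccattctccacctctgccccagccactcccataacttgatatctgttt
Ptprg: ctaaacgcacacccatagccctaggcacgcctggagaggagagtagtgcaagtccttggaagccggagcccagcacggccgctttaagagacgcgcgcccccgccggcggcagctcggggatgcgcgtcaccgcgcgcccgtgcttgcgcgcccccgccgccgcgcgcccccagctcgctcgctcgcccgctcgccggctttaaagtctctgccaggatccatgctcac
Fermt2: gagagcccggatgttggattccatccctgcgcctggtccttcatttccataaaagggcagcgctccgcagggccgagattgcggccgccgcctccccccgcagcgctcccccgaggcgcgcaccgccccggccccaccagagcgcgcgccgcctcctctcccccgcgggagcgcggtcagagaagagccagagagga
The windows were not of one kind. Over the whole 250 bases, G and C made up 42.0% of the Avil window and 52.4% of the Tspan8 window, against 68.4% for Ptprg and 76.0% for Fermt2 and a median of 52.4% over the 32851 windows of the table. The Avil window held 1 CG pair, the Tspan8 window 4, and the Ptprg and Fermt2 windows 31 each, beside a median of 6. Motifs were chosen after the sequences had been seen. The Avil window held GATAA 101 bases and TGTGGT 25 bases before its listed start, and these motifs stand in 22.6% and 14.0% of all windows. CACATG, a form of the E-box bound by the MITF family (12.3% of windows), was found in the Ptprg window, where it reaches into trimmed bases, and in the window of a second listed Ptprg start inside the gene (chr14:12189693-12189942). ACTTCCT, an ETS core (7.69% of windows), was found in the trimmed bases of the first Ptprg window, and CACGTG (6.02% of windows) in none of the 5. No motif stood in more than 2 of the windows, and the Tspan8 and Fermt2 windows held none of the 5 motifs. A match is a description of the sequence and not a bound site.

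Levels are given as FPKM, the number of fragments relative to the length of the transcript and to the size of the library, so that levels of different genes are per length and can be set side by side. The libraries held an estimated 22500000 to 35400000 fragments. Nras, the targeted gene, stood at 348 to 479 FPKM in NRASG12D, at 47.7 to 51.2 in NUP98-NSD1 and at 245 to 701 where both oncogenes were present, which follows the labels. Nup98 stood at 9.12 to 11.1 FPKM in NRASG12D, 18.2 to 19.0 with the fusion alone and 11.9 to 20.2 with both oncogenes, higher without overlap in both groups that carry the fusion, while Nsd1 (9.98 to 16.2 FPKM) overlapped between all groups. Whole-gene values cannot tell the fusion from the cell's own gene. In total RNA of a culture, fewer cells of a type and less RNA per cell cannot be told apart. By flow cytometry and morphology, the paper found that NRASG12D cells were mostly mast cells. It also found more immature myeloid cells with both oncogenes than with NUP98-NSD1 alone. Whether the sequenced cultures had the same make-up was not tested.

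Cadm1 was lower in NUP98-NSD1 and lower again in NUP98-NSD1+NRASG12D cells. Its level was 117, 90.1 and 103 FPKM in the 3 NRASG12D libraries, 12.1, 9.64 and 13.4 in the NUP98-NSD1 libraries and 1.05, 5.71 and 2.47 in the NUP98-NSD1+NRASG12D libraries. All 3 groups stood apart, with the widest gap between NRASG12D and NUP98-NSD1. The mean was 103 ± 13.3 FPKM (SD, n = 3) in NRASG12D, 8.81 times lower in NUP98-NSD1 (11.7 ± 1.93) and 33.6 times lower in NUP98-NSD1+NRASG12D cells (3.08 ± 2.39). On the log2(FPKM + 1) scale, on which all differences below are given, 62.8% of the whole difference of -4.84 lay between the first pair of groups.

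Tspan8 had the lowest level of the 6 in NRASG12D cells, and its difference lay almost whole between NRASG12D and NUP98-NSD1. It stood at 13.1, 12.5 and 17.1 FPKM in NRASG12D, at 0.919, 0.543 and 1.26 in NUP98-NSD1 and at 0.405, 0.661 and 0.0414 in NUP98-NSD1+NRASG12D cells. The NRASG12D libraries lay far above all others, and replicate 2 of NUP98-NSD1 lay below replicate 2 of NUP98-NSD1+NRASG12D, so the order of the last pair of groups is not borne out for this gene. The mean of 14.3 ± 2.47 FPKM in NRASG12D was 15.7 times that of 0.909 ± 0.360 in NUP98-NSD1, and 86.0% of the whole log2 difference of -3.49 lay there. Replicate 3 of NUP98-NSD1+NRASG12D held an estimated 1.30 fragments of Tspan8, less than the 3 fragments (0.0953 FPKM in that library) taken as the smallest level that can be shown. The other libraries of the 2 groups held an estimated 15.8 to 41.9 fragments. Whether so few fragments hide a difference between NUP98-NSD1 and NUP98-NSD1+NRASG12D was not tested.

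Ptprg was high in both single-oncogene groups and low in the third. Its level was 277, 233 and 310 FPKM in NRASG12D, 133, 145 and 214 in NUP98-NSD1, and 2.36, 18.8 and 1.45 in NUP98-NSD1+NRASG12D cells. NRASG12D and NUP98-NSD1 libraries came close to each other without overlap, whereas all 3 NUP98-NSD1+NRASG12D libraries were far below them. The mean fell from 273 ± 39.1 FPKM to 164 ± 43.5, which left 60.0%, and then to 7.54 ± 9.77, which left 4.60% of the NUP98-NSD1 level. With 13.4% of the log2 difference between the first pair of groups, Ptprg had the smallest share there. It ranked 272nd of the 13493 genes tested in NRASG12D by mean level, 648th in NUP98-NSD1 and 8111th in NUP98-NSD1+NRASG12D cells.

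Avil reached the highest level of the 6 genes in NRASG12D cells. The libraries held 429, 273 and 404 FPKM in NRASG12D, 103, 109 and 190 in NUP98-NSD1, and 3.90, 18.8 and 4.00 in NUP98-NSD1+NRASG12D cells. The groups did not overlap, and replicate 3 of NUP98-NSD1 and replicate 2 of NUP98-NSD1+NRASG12D stood above the other libraries of their groups. The mean was 369 ± 83.9 FPKM in NRASG12D, 2.75 times lower in NUP98-NSD1 (134 ± 48.4) and 41.4 times lower in NUP98-NSD1+NRASG12D cells (8.90 ± 8.56). Avil ranked 188th of the tested genes in NRASG12D cells, and 26.9% of its log2 difference lay between NRASG12D and NUP98-NSD1. The last exons of Avil overlap Tsfm, a gene for a mitochondrial translation factor on the other strand, and 3.48% of the 50-base words of Avil transcripts stand in Tsfm on that strand. Without stated strand-specific counting those fragments cannot be told apart. Tsfm itself stood at means of 33.9, 57.4 and 60.9 FPKM in the 3 groups, in the opposite order to Avil.

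Fermt2 had the largest ratio of the 6 between the means of the outer groups, and the smallest SD of the log2 level in NRASG12D (0.0672) and in NUP98-NSD1 (0.0909). It was measured at 17.3, 16.9 and 15.7 FPKM in NRASG12D, at 5.97, 6.90 and 6.36 in NUP98-NSD1 and at 0.135, 0.406 and 0.141 in NUP98-NSD1+NRASG12D cells. All 3 groups lay well apart. The mean was 16.7 ± 0.814 FPKM in NRASG12D, 2.60 times lower in NUP98-NSD1 (6.41 ± 0.469) and 73.4 times lower in NUP98-NSD1+NRASG12D cells (0.227 ± 0.155). The lowest of these levels correspond to an estimated 10.6 to 32.5 fragments in a library. The share of the log2 difference between the first pair of groups was 32.5%, a share that depends on the pseudocount because the last levels lie under 1 FPKM.

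Carmil1 stood at 59.1, 57.2 and 63.7 FPKM in NRASG12D, at 23.4, 23.6 and 37.3 in NUP98-NSD1 and at 1.80, 4.24 and 1.22 in NUP98-NSD1+NRASG12D cells. Again no libraries overlapped between groups, and the same pair of replicates as for Avil stood above the others of their groups. The mean was 60.0 ± 3.33 FPKM in NRASG12D, 2.14 times lower in NUP98-NSD1 (28.1 ± 7.96) and 24.8 times lower in NUP98-NSD1+NRASG12D cells (2.42 ± 1.60). Between the first pair of groups lay 25.9% of its log2 difference.

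**Figure D1:**
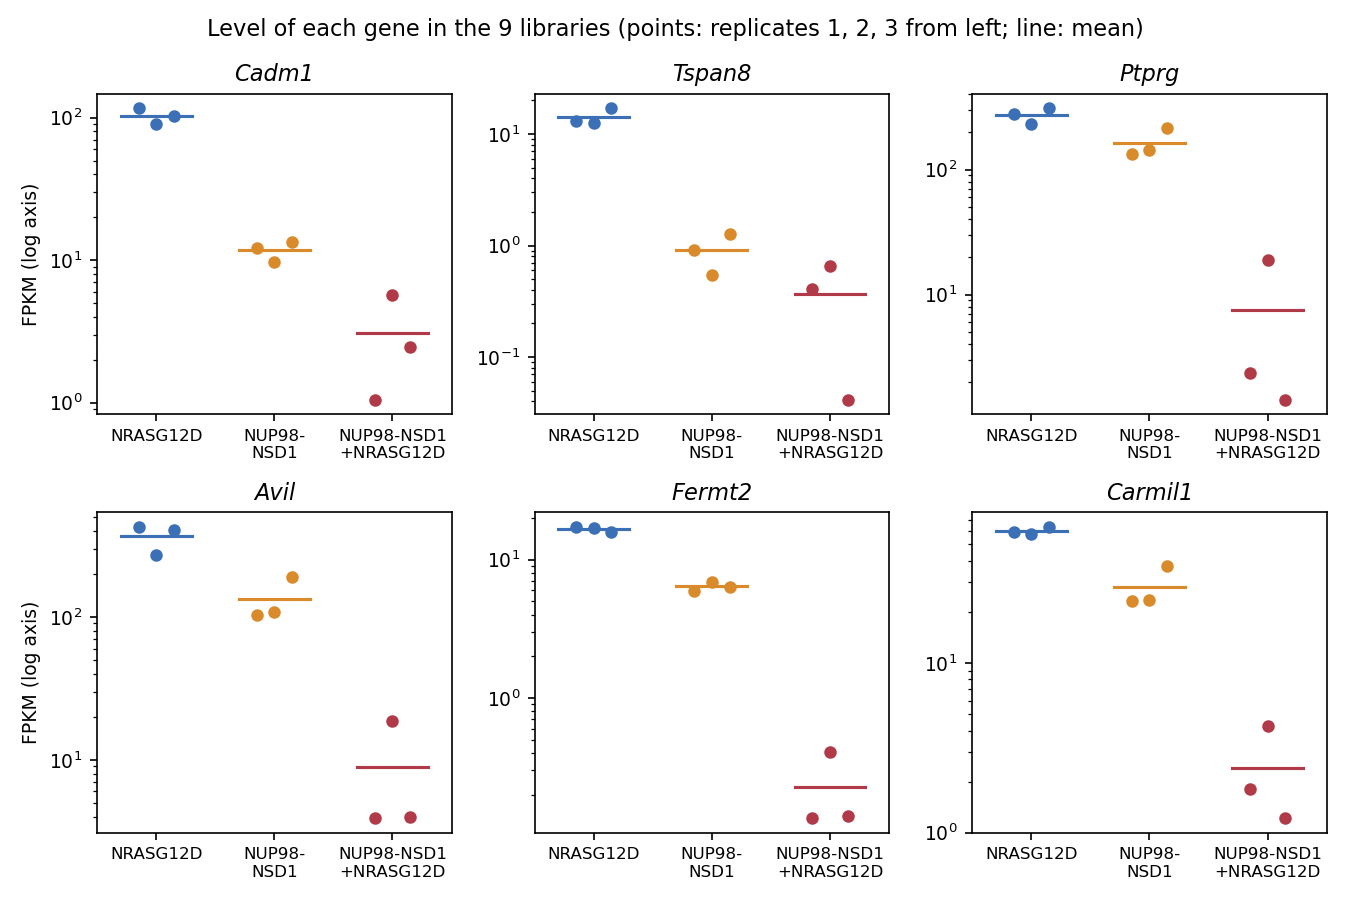
FPKM of each of the 6 genes (log axis) in the 3 libraries of each group, with replicates from left to right and the group mean as a line. For Cadm1, Ptprg, Avil, Fermt2 and Carmil1 the 3 groups do not overlap, while for Tspan8 the NUP98-NSD1 libraries (0.543 to 1.26 FPKM) and the NUP98-NSD1+NRASG12D libraries (0.0414 to 0.661) do.

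The 6 genes thus showed 2 shapes. Cadm1 and Tspan8 had most of their difference between NRASG12D and NUP98-NSD1, and Ptprg, Avil, Fermt2 and Carmil1 had most of it between NUP98-NSD1 and NUP98-NSD1+NRASG12D. In pairs, the libraries of the 6 genes did not overlap in NUP98-NSD1 against NRASG12D and in NUP98-NSD1+NRASG12D against NRASG12D for 6 of 6 genes and in NUP98-NSD1+NRASG12D against NUP98-NSD1 for 5, where 13.5%, 19.9% and 19.8% of all tested genes were lower without overlap. Among all tested genes, 6.84% (923 genes) had the 3 groups in the same falling order without overlap, and since the genes were chosen on these differences nothing is read from their count. The median difference over the 6 genes was -1.37 for NUP98-NSD1 against NRASG12D, -4.55 for NUP98-NSD1+NRASG12D against NRASG12D and -2.88 for NUP98-NSD1+NRASG12D against NUP98-NSD1, where the medians over all tested genes were 0.27, 0.23 and -0.06. Each group enters a pair of these comparisons, so they are not independent of each other.

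Spread within NUP98-NSD1+NRASG12D was large for most of the genes. The SD of the log2 level was 1.63 for Ptprg, 1.15 for Avil, 0.857 for Cadm1 and 0.642 for Carmil1, and 0.341 and 0.176 for Tspan8 and Fermt2, whose levels lie under the pseudocount, beside a median of 0.333 over all tested genes. Replicate 2 had the highest level of that group for 6 of 6 genes. Leaving it out changed the difference between NUP98-NSD1+NRASG12D and NUP98-NSD1 from -4.88 to -5.81 for Ptprg, from -4.04 to -4.71 for Avil and from -1.80 to -2.24 for Cadm1. In NUP98-NSD1 cells replicate 3 was the highest for 5 of 6 genes, Fermt2 being the exception. The shares of all tested genes that were highest in these libraries were not counted, so nothing is read from these counts.

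Markers of the cell types in the cultures also differed between the groups. The defining mast cell markers, 11 genes of granule proteases, the IgE receptor and their regulators, summed to 30047 to 32689 FPKM in NRASG12D, 26847 to 31874 in the NUP98-NSD1 libraries and 745 to 4347 in those with both oncogenes. Cpa3, the mast cell carboxypeptidase, was listed at 0 in all NRASG12D libraries, and whether that 0 is an absence or a missing value was not tested. Without Cpa3 the sums were 30047 to 32689, 13687 to 17495 and 465 to 2526 FPKM. Replicate 2 of NUP98-NSD1+NRASG12D was the highest of its group for 11 of 11 mast cell markers, and replicate 3 of NUP98-NSD1 for 10 of 11. In NRASG12D the 6 genes and the markers did not go together. Replicate 2 there was the highest for 8 of 10 mast cell markers but the lowest for 5 of the 6 genes. Shares over all tested genes were not counted here either. Markers of neutrophils and monocytes, 14 genes, summed to 48.8 to 55.6 FPKM in NRASG12D, 2070 to 6854 in the NUP98-NSD1 libraries and 10829 to 23492 in those with both oncogenes, with Ltf and Camp at 0 in NRASG12D. The libraries with the highest mast cell sums in the last 2 groups had the lowest neutrophil and monocyte sums of their groups. In NRASG12D, by contrast, replicate 2 had the highest sum of both kinds, at 32689 and 55.6 FPKM. Stromal and fibroblast markers, 8 genes, summed to at most 4.51 FPKM in any library, and 7 of the 8 stayed under 1 FPKM throughout. The part of these cell types in the levels of the 6 genes was not tested.

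Set beside the mast cell markers, the 6 genes differed from each other. The mean level of the 10 markers other than Cpa3 in NUP98-NSD1 cells was 40.3% to 2311% of that in NRASG12D cells, with Hdc and Mcpt4 higher and a median of 59.0%, and the 6 genes kept 6.37% to 60.0%. Below all 10 markers lay 4 of the genes, Avil (36.3%) and Fermt2 (38.5%) by little and Cadm1 (11.4%) and Tspan8 (6.37%) by more, while Carmil1 (46.8%) and Ptprg (60.0%) lay among the markers, as did Kit (42.2%), the receptor for stem cell factor, and Fcer1a (74.4%), a chain of the IgE receptor. From NUP98-NSD1 to NUP98-NSD1+NRASG12D the 11 markers kept 3.54% to 66.7%, with a median of 8.08%, and the 6 genes 3.54% to 40.6%, with a median of 7.63%. Gata2, a transcription factor of mast cells and early progenitors, kept 8.08% at that step, close to the 8.62% of Carmil1 and the 6.65% of Avil.

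**Figure D2:**
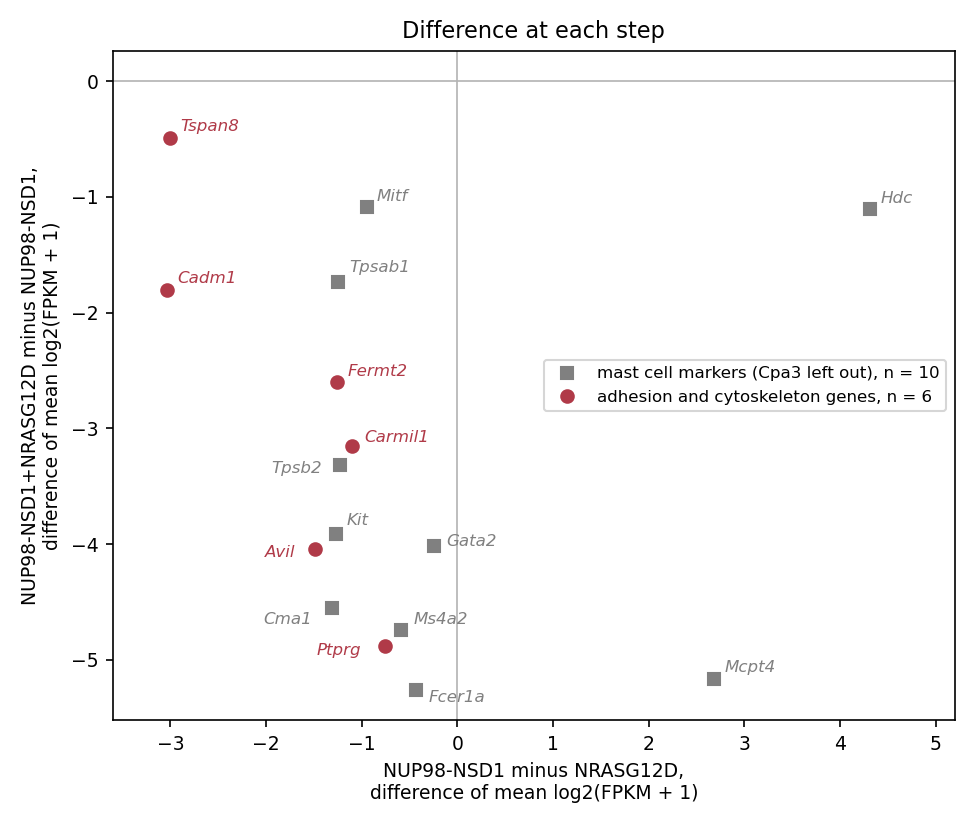
Difference of mean log2(FPKM + 1) between NUP98-NSD1 and NRASG12D (horizontal) and between NUP98-NSD1+NRASG12D and NUP98-NSD1 (vertical), for the 6 genes (circles) and 10 mast cell markers (squares, Cpa3 left out because it is listed at 0 in NRASG12D). Ptprg, Carmil1 and Fermt2 lie within the horizontal range of the squares, Avil (-1.48) lies just to the left of the leftmost square (Cma1, -1.31), and Cadm1 and Tspan8 lie farther to the left, near -3.04 and -3.005.

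Dividing each level by the summed 10 mast cell markers of its library, a ratio chosen after the data were seen, gave FPKM per 1000 FPKM of markers. Most of that sum was the proteases Cma1 and Tpsb2, at means of 14878 and 9837 FPKM in NRASG12D, so the ratio mainly follows them. In NUP98-NSD1 cells they kept 40.3% and 42.1%, below the median of 59.0% over the 10 markers. Ratios to other mast cell markers were not examined. For Carmil1 the ratio was 1.75 to 2.04 in NRASG12D, 1.65 to 2.13 in the NUP98-NSD1 libraries and 1.68 to 2.90 in those with both oncogenes, with all groups overlapping. For Avil it was 8.34 to 14.3, 7.52 to 10.8 and 6.28 to 8.60, again with overlap between each pair of groups. Ptprg overlapped in the first pair (7.11 to 9.95 and 9.74 to 12.2) and was at 3.11 to 7.45 in the last group. The Fermt2 ratio was ordered without overlap, at 0.505 to 0.576, 0.363 to 0.483 and 0.161 to 0.302. Cadm1 and Tspan8 had their lowest ratios in NUP98-NSD1 cells, at 0.675 to 0.887 for Cadm1 between 2.76 to 3.89 in NRASG12D and 1.69 to 5.30 in NUP98-NSD1+NRASG12D. For Tspan8 the ratios were 0.384 to 0.548, 0.0380 to 0.0722 and 0.0890 to 0.653. On this scale neither gene followed the stepwise order.

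**Figure D3:**
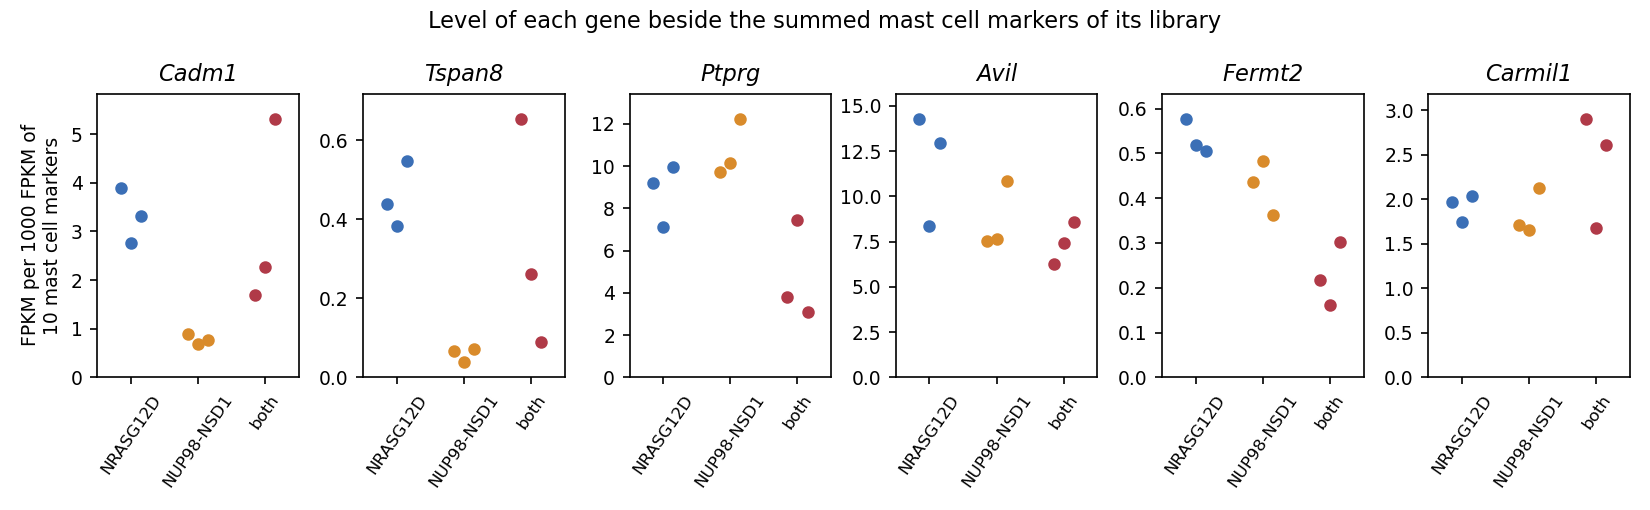
FPKM of each of the 6 genes per 1000 FPKM of 10 summed mast cell markers in the same library, with 3 libraries in each group and axes starting at 0; "both" stands for NUP98-NSD1+NRASG12D. The ratios of Carmil1 and Avil overlap between all groups, those of Cadm1 and Tspan8 are lowest in NUP98-NSD1 cells, and those of Fermt2 are lowest in NUP98-NSD1+NRASG12D cells.

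Next, the relatives of the 6 genes and the proteins that work with them were examined in 8 lists with 162 genes, and 108 of these reached 1 FPKM in 3 or more libraries and could be tested. These genes were tested with limma over all 13493 genes, with adjusted p-values by the Benjamini-Hochberg method and a threshold of 0.05, and "rose" or "fell" is said only of genes that passed. In NUP98-NSD1 against NRASG12D, 35 of the 108 rose and 22 fell, in NUP98-NSD1+NRASG12D against NRASG12D 29 rose and 20 fell, and in NUP98-NSD1+NRASG12D against NUP98-NSD1 5 rose and 7 fell. Of all tested genes 42.2% rose and 9.98% fell in the first comparison, 24.2% and 14.1% in the second and 2.30% and 6.31% in the third. The share of the lists that passed in either direction, 52.8%, 45.4% and 11.1%, was near the 52.1%, 38.3% and 8.61% of all genes. The directions were less alike. Of the calls in the first comparison 61.4% were higher in the lists and 80.9% over all genes, or 31.9% and 52.3% with median-ratio scaling. In the third comparison 41.7% of the calls in the lists were higher and 26.8% of those over all genes.

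The direction in the first comparison depends on the scaling. As deposited, the median of all tested genes was 0.27 above 0, and 80.9% of called genes were higher. With median-ratio scaling the median was 0.01 and 3231 genes rose while 2950 fell, in place of 5689 and 1347, and with quantile normalization 2619 rose and 3447 fell. For the lists the split was 22 higher and 47 lower under both scalings. In NUP98-NSD1+NRASG12D against NRASG12D the median was 0.23 as deposited and 0.06 with median-ratio scaling. There 63.1% of all called genes were higher as deposited, 53.1% with median-ratio scaling and 41.3% with quantile normalization, and for the lists 59.2%, 52.1% and 43.4%. Each relative, partner or flanking gene said below to have risen or fallen kept that direction under both scalings.

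Among the tested immunoglobulin-superfamily adhesion molecules, Cadm3 alone passed as lower between both the first and the last pair of groups. Most of its difference lay between the last pair, whereas most of that of Cadm1 lay between the first. Cadm3, a nectin-like molecule known from neurons, stood at 50.6, 46.7 and 63.5 FPKM in NRASG12D, at 29.5, 25.98 and 43.7 in NUP98-NSD1 and at 0.567, 2.65 and 0.763 in NUP98-NSD1+NRASG12D cells. It fell by 0.70 ± 0.20 (SE) on the log2 scale in NUP98-NSD1 against NRASG12D (limma, adjusted p = 0.0241) and by 3.94 ± 0.36 in NUP98-NSD1+NRASG12D against NUP98-NSD1 (limma, adjusted p = 0.00542). The other relatives, Cadm2 and Cadm4, stood at no more than 0.151 FPKM in any library. In the list of 21 genes, 11 were tested, and 6 rose and 2 fell in the first comparison, 5 rose and 2 fell in NUP98-NSD1+NRASG12D against NRASG12D, and Cadm3 alone passed in the third. Nectin2, a partner in nectin-based adhesion, stood at means of 0.167, 6.21 and 9.77 FPKM in the 3 groups, and F11r (JAM-A, a junction molecule of leukocytes and platelets) at 0.295, 5.57 and 12.8. Alcam rose from 3.33 ± 0.944 FPKM in NRASG12D to 45.1 ± 27.97 in NUP98-NSD1+NRASG12D cells (log2 difference 3.19, limma, adjusted p = 0.00371). Pecam1, known from endothelium, platelets and leukocytes, fell by 1.18 there (limma, adjusted p = 0.0147) and by 0.53 in NUP98-NSD1 against NRASG12D (limma, adjusted p = 0.00254). Ncam1 rose by 1.09 in that comparison (limma, adjusted p = 0.0145), from a mean of 0.142 to 1.54 FPKM.

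Tetraspanins moved both ways. Of 30 relatives of Tspan8, 18 were tested, with 8 higher and 4 lower in NUP98-NSD1 against NRASG12D, 7 and 7 in NUP98-NSD1+NRASG12D against NRASG12D, and 1 and 3 in NUP98-NSD1+NRASG12D against NUP98-NSD1. The majority in the first comparison turned with the scaling, to 7 higher and 9 lower under both alternatives, and the split in the third was 2 and 2 by median ratio and 2 and 3 by quantiles. Cd81, a tetraspanin of many blood cells that partners with integrins, stood at 0.581, 2.58 and 1.67 FPKM in NRASG12D, at 35.3, 35.5 and 12.6 in NUP98-NSD1 and at 135, 227 and 259 in NUP98-NSD1+NRASG12D cells, the reverse of the order of the 6 genes. Its log2 difference was 3.41 ± 0.45 in the first comparison (limma, adjusted p = 0.00165) and 2.94 ± 0.44 in the third (limma, adjusted p = 0.0128). Tspan32, which is confined largely to blood cells, had means of 0.731, 38.7 and 85.3 FPKM, and Tspan3 of 3.58, 22.2 and 44.7 FPKM. On the falling side, Cd63, a tetraspanin of granule membranes that appears on the surface when mast cells and basophils degranulate, had means of 3346 ± 209, 2019 ± 356 and 675 ± 256 FPKM. Tspan13 stood at 164, 215 and 131 FPKM in NRASG12D, 133, 119 and 128 in NUP98-NSD1, and 28.3, 17.4 and 2.95 in NUP98-NSD1+NRASG12D cells, and passed between the last pair of groups (log2 difference -3.31 ± 0.68, limma, adjusted p = 0.0320) and not between the first. Tspan2 fell by 1.25 in NUP98-NSD1 against NRASG12D (limma, adjusted p = 0.00450) from a mean of 4.34 to 1.21 FPKM, a loss in the first step like that of Tspan8 but smaller. Cd9 fell by 0.62 there (limma, adjusted p = 0.0355) with overlapping groups, and Tspan9 fell by 0.91 in the third comparison (limma, adjusted p = 0.0224).

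The closest relative of Ptprg, Ptprz1, stood at no more than 0.0768 FPKM in any library. Of 20 receptor-type phosphatases 7 were tested. Ptpro, a phosphatase of macrophages and kidney podocytes, rose from a mean of 0.0595 FPKM in NRASG12D to 1.42 in NUP98-NSD1 (log2 difference 1.19, limma, adjusted p = 0.000887) and 5.53 in NUP98-NSD1+NRASG12D cells (2.50, limma, adjusted p = 0.00187). Ptpra, found in most tissues, fell by 0.32 in NUP98-NSD1 against NRASG12D (limma, adjusted p = 0.0240). None of the 7 passed in NUP98-NSD1+NRASG12D against NUP98-NSD1 by limma, and 2 had an unadjusted p under 0.05.

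In the gelsolin and villin family, Scin and Vill went down with Avil at the last step. Scin, or scinderin, a calcium-dependent actin-severing protein of secretory cells, stood at 654, 817 and 717 FPKM in NRASG12D, at 548, 460 and 556 in NUP98-NSD1 and at 33.2, 77.0 and 6.89 in NUP98-NSD1+NRASG12D cells. Its difference between the last pair of groups was -4.24 ± 0.75 (limma, adjusted p = 0.0213). Vill, a villin-like protein, stood at 22.3, 21.2 and 27.97 FPKM, at 19.4, 39.6 and 39.9 and at 0.541, 7.21 and 0.363 in the 3 groups, with a difference of -3.65 ± 0.70 between the last pair (limma, adjusted p = 0.0268). For both genes replicate 2 was the highest of the NUP98-NSD1+NRASG12D libraries, as it was for the 6 genes. Gsn, the general actin-severing gelsolin, fell by 0.73 in NUP98-NSD1 against NRASG12D (limma, adjusted p = 0.00731), as did Svil by 0.86 (adjusted p = 0.00118) and Capg by 0.65 (adjusted p = 0.00739). In NUP98-NSD1+NRASG12D cells Gsn was spread from 136 to 612 FPKM. Vil1 itself stood at no more than 0.126 FPKM in any library. Avil made up 11.7% to 20.1% of the summed FPKM of the family in NRASG12D, 7.77% to 11.7% in the NUP98-NSD1 libraries and 0.266% to 1.53% in those with both oncogenes.

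Fermt3, the kindlin of blood cells, stood far above Fermt2 and changed little. It was at 246, 282 and 276 FPKM in NRASG12D, at 251, 250 and 250 in NUP98-NSD1 and at 183, 191 and 202 in NUP98-NSD1+NRASG12D cells, and fell by 0.48 ± 0.15 in NUP98-NSD1+NRASG12D against NRASG12D (limma, adjusted p = 0.0405). Between the single steps it did not pass in limma, and 1 of the 2 steps had an unadjusted p under 0.05. Fermt2 made up 5.39% to 6.58% of the sum of both kindlins in NRASG12D, 2.32% to 2.69% in the NUP98-NSD1 libraries and 0.0697% to 0.212% in those with both oncogenes. Fermt1, the kindlin of epithelia, stood at no more than 0.235 FPKM in any library. Of the relatives of Carmil1, Carmil2 stood at no more than 1.23 FPKM and Carmil3 at no more than 0.435, so that Carmil1 was the most abundant of its family in all 3 groups by mean level.

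**Figure D4:**
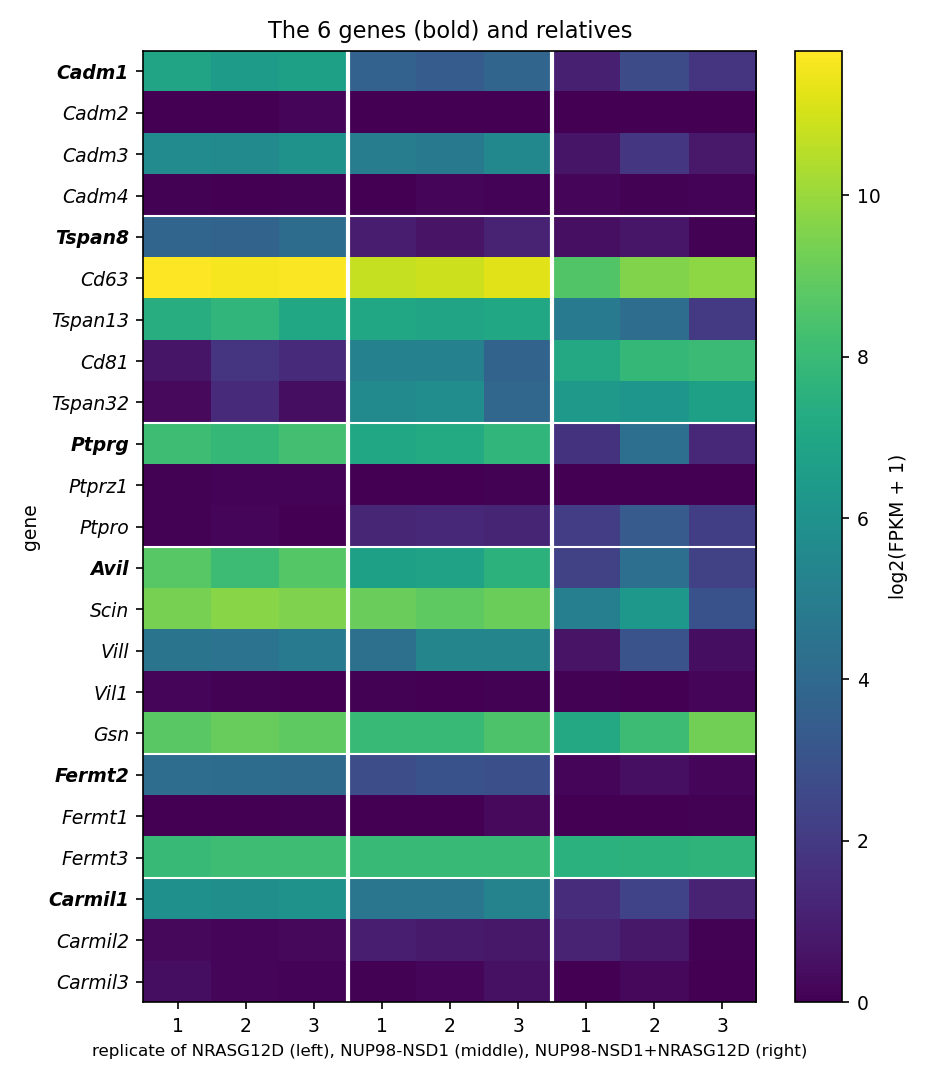
Level of the 6 genes (bold) and of relatives as log2(FPKM + 1), as colour, in the 9 libraries, grouped by family. Cadm3, Tspan13, Scin and Vill are low in the NUP98-NSD1+NRASG12D libraries together with the 6 genes, Cd81 and Tspan32 are high there, and Fermt3 keeps 183 to 282 FPKM in all libraries.

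The proteins that work with talin and the kindlins also went both ways, with 7 higher and 6 lower of 24 tested in NUP98-NSD1 against NRASG12D and 6 higher and 5 lower in NUP98-NSD1+NRASG12D against NRASG12D. Most of the calls were lower after rescaling, with 4 higher and 11 lower by median ratio and 4 and 13 by quantiles in the first of these comparisons, and 5 and 6, and 5 and 7, in the second. Rasgrp2, which switches on Rap1 and through it integrins in platelets and leukocytes, had means of 0.275, 53.6 and 103 FPKM in the 3 groups, and Actn1, which crosslinks actin at adhesions, of 0.309, 9.23 and 20.5. Actn1 rose at both steps, by 2.96 ± 0.15 (limma, adjusted p = 5.52e-05) and by 1.06 ± 0.22 (limma, adjusted p = 0.0341). Flna, another actin crosslinker that ties integrin tails to actin, rose by 1.02 ± 0.22 between the last pair (limma, adjusted p = 0.0386), and Pxn, or paxillin, by 0.76 in the first comparison (limma, adjusted p = 0.00192). Tln1, the talin that acts with the kindlins, fell by 1.18 ± 0.21 in NUP98-NSD1+NRASG12D against NRASG12D (limma, adjusted p = 0.00476), from a mean of 111 to 48.7 FPKM, and Zyx, or zyxin, fell by 0.94 (limma, adjusted p = 0.00233). Fblim1, or migfilin, which links kindlin-2 to filamin, fell by 1.97 ± 0.10 in NUP98-NSD1 against NRASG12D (limma, adjusted p = 6.75e-05). In NUP98-NSD1+NRASG12D cells Fblim1 stood at 3.33, 20.9 and 20.9 FPKM, which overlaps both other groups. Ptk2b, an adhesion kinase of blood cells, fell by 0.83 in the first comparison (limma, adjusted p = 0.00356). Parvb, or beta-parvin, fell by 1.04 in that comparison and by 1.61 in NUP98-NSD1+NRASG12D against NRASG12D (limma, adjusted p = 0.0391 and 0.0259).

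Carmil1 acts on the machinery of actin capping and nucleation, of which 30 genes were tested. In NUP98-NSD1 against NRASG12D 10 rose and 4 fell, where 3 were higher and 14 lower after median-ratio scaling and 4 and 10 after quantile normalization. In NUP98-NSD1+NRASG12D against NRASG12D 7 rose and 1 fell, where the scalings gave 5 and 2, and 3 and 6, and in the third comparison 1 rose. Twf2, a twinfilin that binds capping protein, rose by 0.99 and 1.51 in the first and second comparison (limma, adjusted p = 0.00536 and 0.00220). Actr3, a subunit of the Arp2/3 complex that branches actin, rose by 0.58 and 0.80 at the single steps (limma, adjusted p = 0.00615 and 0.0397). Fmnl1, a formin of blood cells, rose by 0.64 in the first comparison and by 1.11 in the second (limma, adjusted p = 0.00129 and 0.0138). Sh3kbp1, an adaptor that holds capping protein, fell by 0.50 and 0.86 (limma, adjusted p = 0.00174 and 0.00650). Msn, or moesin, and Myo1e, a membrane-bound myosin, fell by 0.57 and 0.51 in the first comparison (limma, adjusted p = 0.00427 and 0.0343).

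Among the protein 4.1 and scaffold genes, whose products bind the tails of nectin-like molecules, Tiam1 fell at each step. Tiam1, an activator of the small GTPase Rac, had means of 70.4 ± 13.7, 37.2 ± 7.08 and 12.7 ± 1.92 FPKM in the 3 groups and fell by 0.90 ± 0.18 and 1.47 ± 0.19 (limma, adjusted p = 0.00670 and 0.00940). Of all 108 tested relatives and partners, 4 passed as lower at both steps, namely Tiam1, Cadm3, Cd63 and Scin, and 5 passed as higher at both, namely Cd81, Actn1, Flna, Actr3 and Mpp1. Of all tested genes 2.84% were lower and 1.84% higher at both. Mpp1, a membrane scaffold of blood cells, rose at both steps, with means of 12.0, 41.0 and 130 FPKM, and passed between the last pair at an adjusted p of 0.0450 (limma). Mpp7 and Epb41l2 rose in both comparisons with NRASG12D, to 7.48 and 10.2 FPKM from 2.22 for Mpp7 and to 8.51 and 13.8 FPKM from 5.50 for Epb41l2, and Mpp5 fell by 0.52 in NUP98-NSD1+NRASG12D against NRASG12D (limma, adjusted p = 0.0381). Of the 11 tested genes of this list, 3 rose and 1 fell in the first comparison (2 and 4 by median ratio, 2 and 5 by quantiles), 3 rose and 2 fell in the second and 1 went each way in the third.

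**Figure D5:**
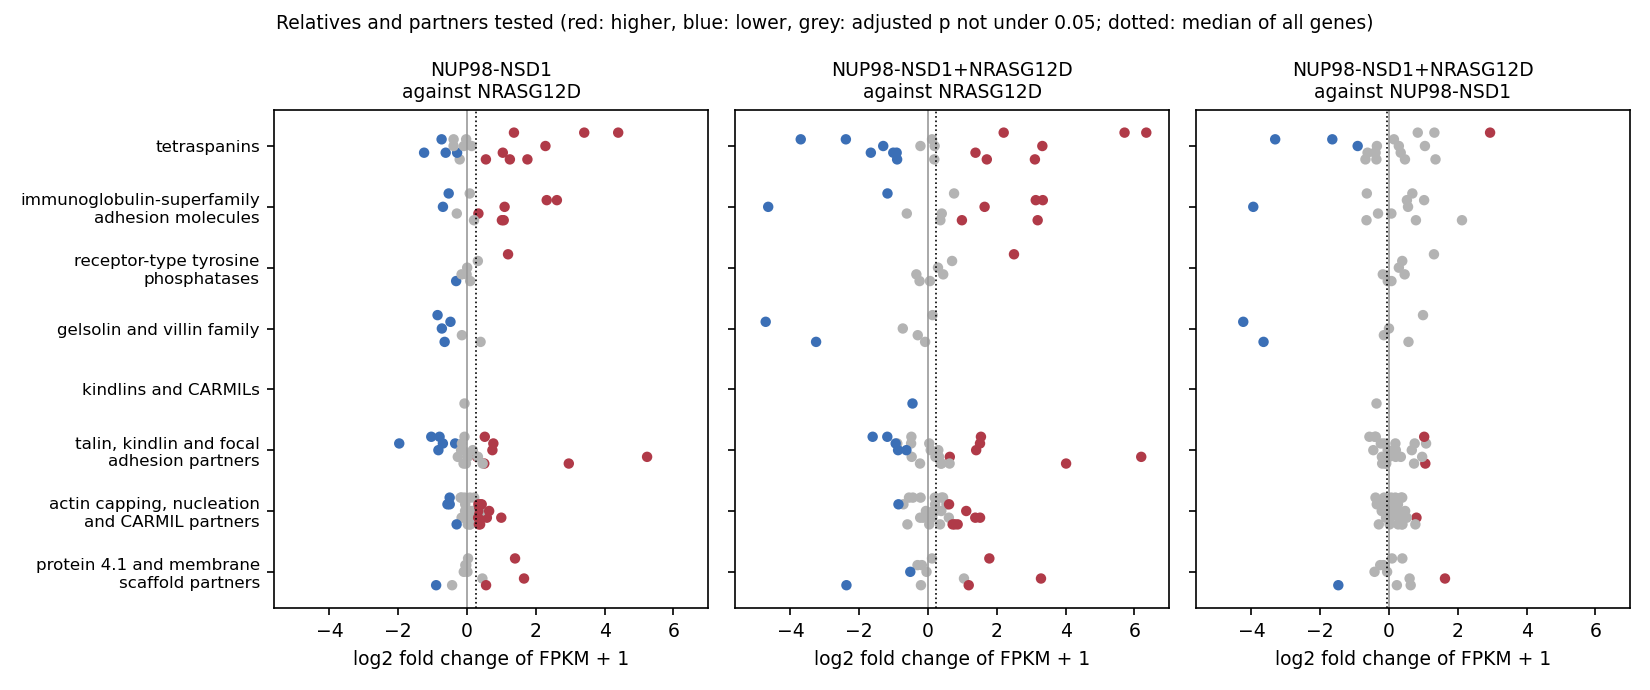
Log2 fold change of FPKM + 1 for the 108 tested relatives and partners, by list, in the 3 comparisons; red and blue points passed an adjusted p of 0.05 as higher and lower, grey points did not, and the dotted line is the median of all 13493 tested genes. In the last comparison 12 points are coloured, with Scin, Cadm3, Vill and Tspan13 farthest to the left and Cd81 farthest to the right.

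Most calls between NUP98-NSD1 and NUP98-NSD1+NRASG12D were lost when any 1 library of NUP98-NSD1 was left out. A fit on fewer libraries is also weaker, and the cause of the losses was not tested. Of the 12 listed genes that passed, 3 still passed without NUP98-NSD1 replicate 1, 3 without its replicate 2 and 3 without its replicate 3. Without NUP98-NSD1+NRASG12D replicate 3, 4 of the 12 still passed, without replicate 2 of that group 6, and without its replicate 1 all 12, where 29 listed genes passed in all. None of the 12 calls held in every alternative run, against 18 of 32 named calls in NUP98-NSD1 against NRASG12D and 23 of 30 in NUP98-NSD1+NRASG12D against NRASG12D, although none of these 74 changed direction.

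By the likeness of their pattern over the 9 libraries, measured as Pearson's r of log2(FPKM + 1) with no test, the nearest genes differed by shape. For Ptprg they were Inpp4b, Ndst2 and Tpsg1 (r = 0.999, 0.999 and 0.998), with Tpsg1, a transmembrane tryptase, at means of 1187, 657 and 37.7 FPKM in the 3 groups. For Avil they were Csf2rb2, the beta chain of the mouse IL-3 receptor, Cobl, which nucleates actin, and Pde1c (0.998, 0.997 and 0.996), and for Carmil1 they were Dgki, Frmpd1 and Tmem9 (0.998, 0.998 and 0.997). Fermt2 was nearest to Gm973, Gm47547 and Qprt (0.997, 0.996 and 0.995). Cadm1 was nearest to Stxbp5, Adamtsl1 and Gm12660 (0.996, 0.990 and 0.989), and Tspan8 to Rab36, Cdh2 and Chad (0.993, 0.990 and 0.988). Cdh2, or N-cadherin, a further adhesion molecule, stood at means of 6.33, 0.568 and 0.0570 FPKM. Among the 6 genes themselves, the 15 pairs had r from 0.693 (Tspan8 and Ptprg) to 0.995 (Avil and Carmil1). These values are set mainly by the 3 group means, which the choice of the genes fixed.

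The genes that flank the 6 went both ways. The 2 nearest tested genes on each side of each gene, 24 in all and taken up after the data were seen, had 14 higher and 2 lower in NUP98-NSD1 against NRASG12D, 6 and 4 in NUP98-NSD1+NRASG12D against NRASG12D, and none past the threshold by limma between NUP98-NSD1 and NUP98-NSD1+NRASG12D, where 6 had an unadjusted p under 0.05. Of all tested genes 42.2% were higher and 9.98% lower in the first of these comparisons and 24.2% and 14.1% in the second. The split of the 24 became 10 and 4 by median ratio and 8 and 5 by quantiles in the first comparison, and 6 and 5, and 4 and 5, in the second. Nxpe4, 304 kb from Cadm1, fell by 1.14 and 1.78 in the comparisons with NRASG12D (limma, adjusted p = 0.00121 and 0.000621), and 3830406C13Rik, 42.1 kb from Ptprg, fell by 0.38 and 1.36 (limma, adjusted p = 0.00681 and 0.0290). Mettl1, 20.4 kb from Avil, rose by 1.02 in NUP98-NSD1 against NRASG12D (limma, adjusted p = 0.00247), and Gnpnat1, 53.9 kb from Fermt2, by 0.78 (limma, adjusted p = 0.00321). The gaps of the 24 ran from 0 kb (Tsfm, which overlaps Avil) to 2753 kb (Gm9800, from Ptprg), so some lie far from the 6 genes. The median difference of the 24 was -0.0025 between the last pair of groups, where that of the 6 genes was -2.88.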

How the data were processed

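RNA of 9 cultures of transduced mouse bone marrow cells was sequenced as paired reads of 50 bp. The authors deposited a Cufflinks table of FPKM per gene for each library. According to the methods, reads were aligned to GRCm38 with STAR and GENCODE M22 and quantified with Cufflinks, and the submitters' processing notes name STAR 2.7.2a, Cufflinks 2.2.1 and GRCm38.p6. Scaling between libraries, reads with several alignments and strand-specific counting are not given in the sources used here. The methods name a test on fragment counts, but the tables hold FPKM, so no count test was run.

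The titles of the samples gave the groups. There were 55274 identifiers in a table, and rows with the same identifier were summed. Depth was estimated from the size of the steps between low FPKM in 3386 single-transcript genes longer than 2500 bp. Of low values, 84.6% to 87.2% lay within 0.15 of a whole step. Simulated counts fell on whole steps by construction, so their largest error of 0.0047% does not measure the error of the real depths. A floor of 3 fragments was used, which covers counting error only. The 13493 genes at 1 FPKM or more in 3 or more libraries were tested on log2(FPKM + 1), which understates changes of low genes. Each pair of groups was fitted on its 6 libraries with limma 3.58.1 in R 4.3.3 (eBayes with trend), with Benjamini-Hochberg adjusted p-values across these genes and a threshold of 0.05. With 3 libraries against 3 an exact permutation test of a single value cannot go below a p of 0.1, so none was run. On simulated data with the design of NUP98-NSD1+NRASG12D against NUP98-NSD1 and 13493 genes, the fit found 23.9%, 74.6% and 90.9% of log2 changes of 1, 2 and 3. Of the calls 4.55% were false. The simulation gave both groups the same spread per gene. In the data the median SD was 0.157 in NUP98-NSD1 and 0.333 in NUP98-NSD1+NRASG12D, so these shares may not hold there.

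The 6 genes, the lists and the cell type markers were chosen with earlier results of these data known. Named were the 6 genes, their closest relatives, up to 3 genes with the largest rise and the largest fall of each list and comparison among those called, the 3 genes most alike in pattern to each of the 6, the markers, and Nras, Nup98 and Nsd1. Of the markers, those that a result turns on were given singly and the other lists as sums. Neighbouring genes and Tsfm were named after their values were seen. Alternatives were a pseudocount of 0.1, median-ratio scaling, quantile normalization, no filter, all libraries in 1 fit, a replicate block and leaving out each library. Promoter windows came from RefSeq (GRCm38.p6), and gene models and transcripts from GENCODE M21. Python 3.11.15, numpy 2.4.6, pandas 2.3.3 and matplotlib 3.10.9 were used.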

Additional observations from a re-analysis of the deposited data

How the results depend on the processing

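None of the 6 genes, their medians and the calls of named relatives and partners changed direction under any alternative run. Of the called flanking genes only Ripor2 did. Markers and the genes used to check the labels are not covered by this. Hdc reversed in NUP98-NSD1+NRASG12D against NUP98-NSD1, and Nsd1 in NUP98-NSD1+NRASG12D against NRASG12D, each when a single library was left out. The split of calls between higher and lower moved with the scaling as given above. The median difference of the 6 genes in NUP98-NSD1 against NRASG12D was -1.66 with median-ratio scaling and -1.66 with quantile normalization in place of -1.37. With a pseudocount of 0.1 the medians were -5.53 in place of -4.55 for NUP98-NSD1+NRASG12D against NRASG12D and -3.94 in place of -2.88 for NUP98-NSD1+NRASG12D against NUP98-NSD1, since levels under 1 FPKM then count for more. Leaving out 1 library gave -1.54 to -1.27, -4.95 to -4.29 and -3.11 to -2.72 for the 3 comparisons. Genes called over all genes were 3065 in place of 7036 for NUP98-NSD1 against NRASG12D with all 9 libraries in 1 fit, and for NUP98-NSD1+NRASG12D against NUP98-NSD1 they were 2251 in that fit and 169 with no filter on low values, in place of 1162. Relatives and partners called were 30 in place of 57 in the first and 27 in place of 12 in the last comparison with all 9 libraries in 1 fit. With no filter 0 were called in the last comparison by limma, where 41 of 162 had an unadjusted p under 0.05. The cause of these changes was not tested. Leaving out 1 library gave 4736 to 7948 calls and 41 to 61 among relatives and partners in NUP98-NSD1 against NRASG12D, 2941 to 6327 and 35 to 59 in NUP98-NSD1+NRASG12D against NRASG12D, and 283 to 2509 and 3 to 29 in NUP98-NSD1+NRASG12D against NUP98-NSD1. The low ends came without NUP98-NSD1 replicate 2, without NRASG12D replicate 3 and without NUP98-NSD1 replicate 3, and the last high end without NUP98-NSD1+NRASG12D replicate 1. For the flanking genes, alternatives added after the data were seen gave 9 to 18 calls in place of 16 in NUP98-NSD1 against NRASG12D, 3 to 15 in place of 10 in NUP98-NSD1+NRASG12D against NRASG12D (4 without any 1 of the NRASG12D libraries, 5 without NUP98-NSD1+NRASG12D replicate 3) and 0 to 3 in place of 0 in the last comparison. Ripor2, next to Carmil1, reversed in the first comparison, from 0.27 to -0.015 with median-ratio scaling and -0.043 with quantile normalization. No pairing by replicate number was seen, as the correlations of same-numbered deviations ran from -0.177 to 0.160. Such weak correlations cannot exclude a shared source of same-numbered libraries. With the numbers as a replicate block 6 relatives and partners in place of 12 were called between NUP98-NSD1 and NUP98-NSD1+NRASG12D, and the other counts stayed within 1.5 times. Depth limits Tspan8 and Fermt2 in NUP98-NSD1+NRASG12D cells, where 1.30 to 32.5 fragments stood behind a value.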

Other observations

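Other cell type markers were present at low or uneven levels. Basophil markers, 3 genes, summed to 406 to 447 FPKM in NRASG12D, 858 to 1603 in the NUP98-NSD1 libraries and 29.2 to 487 in those with both oncogenes. This sum joins markers that went different ways. Means in the 3 groups were 380, 181 and 22.8 FPKM for Cd200r3, 38.7, 752 and 184 for Mcpt8, and 1.01, 204 and 72.8 for Prss34. Megakaryocyte markers, 6 genes, summed to 602 to 670, 293 to 382 and 82.6 to 1251 FPKM in the same order, so that 1 library of the last group stood above all others. Most of the sum in that library was Pf4, at 1157 FPKM. These markers also went different ways, with means of 510, 230 and 22.1 FPKM for Itga2b and 1.56, 28.3 and 444 for Pf4. Erythroid markers, 5 genes, summed to 3.63 to 7.20, 28.3 to 65.3 and 3.81 to 38.7 FPKM. Markers of B cells (at most 9.19 FPKM), T cells (at most 5.48) and endothelium (at most 7.10) stayed low as sums in all libraries.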
